A study of Mus musculus with 11 samples.

Results

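The effect of Torin was measured in OT-I CD8+ T cells during their response to peptide. OT-I is a mouse T cell receptor transgene that recognises an ovalbumin peptide on the class I molecule H-2Kb, and the labels call the stimulating peptide N4. Torin is an ATP-competitive inhibitor of the kinase mTOR. All libraries were labelled as genotype OT-I and 12 h, and 3 groups exist. The stimulated group (n = 4) was given DMSO, the solvent, together with N4. The Torin group (n = 3) was given Torin together with N4 and carries the replicate numbers 1, 3 and 4. The naive group (n = 4) was untreated and is used here only to show levels. The comparison thus took 7 of the 11 libraries in the series, chosen by their labelled treatment, and 3 of the 4 numbers have both groups. The dose of Torin and the age and sex of the mice were not given in the sources used here. Whether each library is from its own animal is not stated either, and p-values therefore measure the spread between these libraries, which may be technical.

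The kinase mTOR works in 2 complexes. Complex 1, which contains Raptor (Rptor), stimulates translation by phosphorylating S6 kinases and the 4E-BP repressors, raises ATF4 protein and the enzymes it controls, supports glycolysis through HIF1A and lipid synthesis through SREBP factors, and restrains autophagy. Complex 2, which contains Rictor, activates AKT, which keeps FOXO factors out of the nucleus. In CD8+ T cells antigen receptor signals activate both complexes, and these are known for metabolic growth, effector differentiation and the loss of lymph node homing receptors.

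Estimated counts summed to 278965885 to 318559117 per stimulated and 274506087 to 405884097 per Torin library, which exceeds usual read numbers, and counting intervals were not computed because the origin of these totals is unknown. Levels are given as CPM, depth-scaled counts corrected by composition factors, and are relative to the other RNA of the library. In bulk RNA, fewer cells of a type and less RNA per cell cannot be told apart. The first principal component of the 7 libraries held 45.5% of the variance and separated the Torin libraries from all stimulated ones. The next, with 27.3%, separated both libraries numbered 4 from the rest. Of 14 CD8 T cell markers tested, 3 rose with Torin and none fell, or 21.4% past the test, against 4.94% of all genes. Those that rose were Cd3e, Cd3g and Trac, by 0.80, 0.90 and 0.78 on the log2 scale. None of these passed with the replicate number as a block (edgeR adjusted p = 0.0715, 0.0657 and 0.0741). Cd8a stood at 152, 172, 101 and 245 CPM in stimulated 1 to 4 and at 104, 83 and 225 CPM in Torin 1, 3 and 4. Its log2 change was -0.29 (edgeR adjusted p = 0.749). The CD8 T cell markers summed to 6730 to 10500 CPM in stimulated and 12500 to 13500 CPM in Torin libraries, without overlap. Cd4 reached at most 0.0252 CPM. Markers of CD4 and regulatory T cells, of which none passed, summed to 10.1 to 69.0 CPM in stimulated and 6.78 to 33.6 CPM in Torin libraries. The highest sums were 69.0 CPM in stimulated 2, 44.6 CPM in stimulated 4 and 33.6 CPM in Torin 4. Markers of NK and gamma-delta T cells, of which only Eomes passed, summed to 184 to 264 CPM and 323 to 426 CPM. Summed B cell markers stood at 13100 CPM in stimulated 4 and 12000 CPM in Torin 4, against at most 104 CPM in the other 5 libraries. Granulocyte markers summed to 1870 CPM in stimulated 2, while no other of the 7 libraries exceeded 46.1 CPM. Monocyte and macrophage markers reached 97.4 CPM there and 22.0 CPM or less in the rest of the 7. Naive libraries held more of these markers. B cell markers summed to 42900 CPM in naive 4 and to at most 331 CPM in the other naive libraries. In naive 2, granulocyte and monocyte markers summed to 7780 and 1990 CPM, against at most 171 and 211 CPM in the others. The naive means given below include these libraries. None of the B cell, monocyte or granulocyte markers passed the test, and their part in the results below was not tested except where a value without the library is given.

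Torin changed the level of 975 of 19754 genes tested, which is 4.94% (edgeR quasi-likelihood test, Benjamini-Hochberg adjusted p under 0.05). Higher levels with Torin were found for 470 genes (2.38%) and lower levels for 505 (2.56%). At least 2-fold differences made up 305 of the higher and 344 of the lower genes, and at least 4-fold differences 57 and 121. The libraries of both groups did not overlap for 4343 of the genes tested (22.0%), and for all 975 that passed. With the replicate number as a block, on the 6 libraries of numbers 1, 3 and 4, 544 of 19133 genes passed (2.84%), of which 399 were among the 975. That fit also leaves out stimulated 2, and the same 6 libraries without the block gave 304 genes. Composition factors set the scale for higher and lower, and on that scale the median log2 change over all genes was -0.01. Scaling by library totals alone gave a median of 0.11, and 64.4% of the genes past the test were then higher, against 48.2%.

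**Figure D1:**
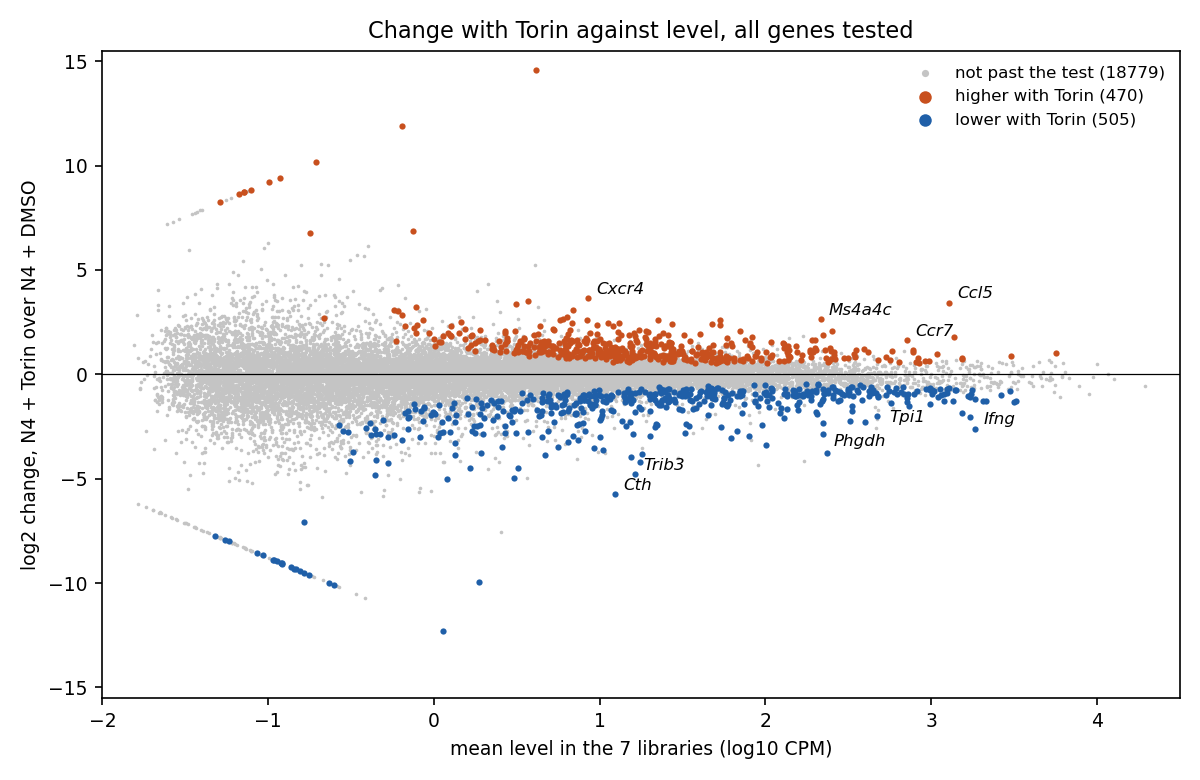
Log2 change with Torin (vertical axis) against the mean level of each gene over the 7 libraries (horizontal axis, log10 CPM) for the 19754 genes tested, with the 470 higher and 505 lower genes coloured. Most coloured genes lie within 4-fold of no change, and points on the slanted lines at low levels are genes with 0 counts in one group.

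How far a call rests on single libraries was measured by refitting 7 times, leaving out 1 library each time. Leaving out Torin 3 left 57 genes past the test, and leaving out Torin 1 or Torin 4 left 142 or 319. For stimulated 1, 2, 3 and 4 the counts were 927, 304, 1030 and 280. Among the 105 genes named by rule that passed, the call held in all 7 of these refits for 18: Cth, Trib3, Slc7a3, Sesn2, Ddit4, Psph, Phgdh, Nars, Tpi1, Eif4ebp1 and Psmb10, which fell, and Cxcr4, Ccl5, Ms4a4a, Ms4a4c, Cd83, Cd44 and Cd28, which rose. Of the 105 calls, 68, 86 and 53 ended when Torin 1, 3 and 4 were left out in turn, and 17, 44, 9 and 48 when stimulated 1, 2, 3 and 4 were. All 105 kept their direction in each refit and passed by DESeq2, and 69 passed with the block. Below, a gene given with its library values has the number of refits in which its call held where that was fewer than 7. Each such call ended without Torin 3, except that of Fosl1, which ended without Torin 1, and the highest adjusted p in these refits lay between 0.0510 and 0.198. A call that held in 5 refits ended without both Torin 1 and Torin 3, except that of Ly6c2, which ended without Torin 3 and Torin 4.

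Gene lists were described by how many of their tested members passed, beside the 2.38% (higher) and 2.56% (lower) of all genes. These shares depend on level. Genes under 1 CPM in both groups made up 38.2% of those tested and held 50 of the 975 calls. By contrast, 743 of the calls lay among the 7614 genes with a mean of at least 5 CPM. Lists of well-expressed genes thus stand beside a low background, and none matched for level was computed. In all, 1129 of 1155 list genes had counts high enough for the test. The largest shares of lower members were 14 of 29 in glycolysis and 12 of 25 among targets of ATF4, followed by 6 of 16 enzymes of serine and one-carbon metabolism and 7 of 20 cytosolic tRNA synthetases. Apart from cell type markers, the largest shares of higher members were 7 of 30 naive and quiescence genes, 4 of 18 substrates of mTOR complex 1, 5 of 27 FOXO factors and targets and 6 of 33 early T cell receptor response factors. No member passed among 25 genes of purine and pyrimidine synthesis, 13 of polyamine synthesis, 15 mitochondrially encoded transcripts and 22 mitosis genes.

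**Figure D2:**
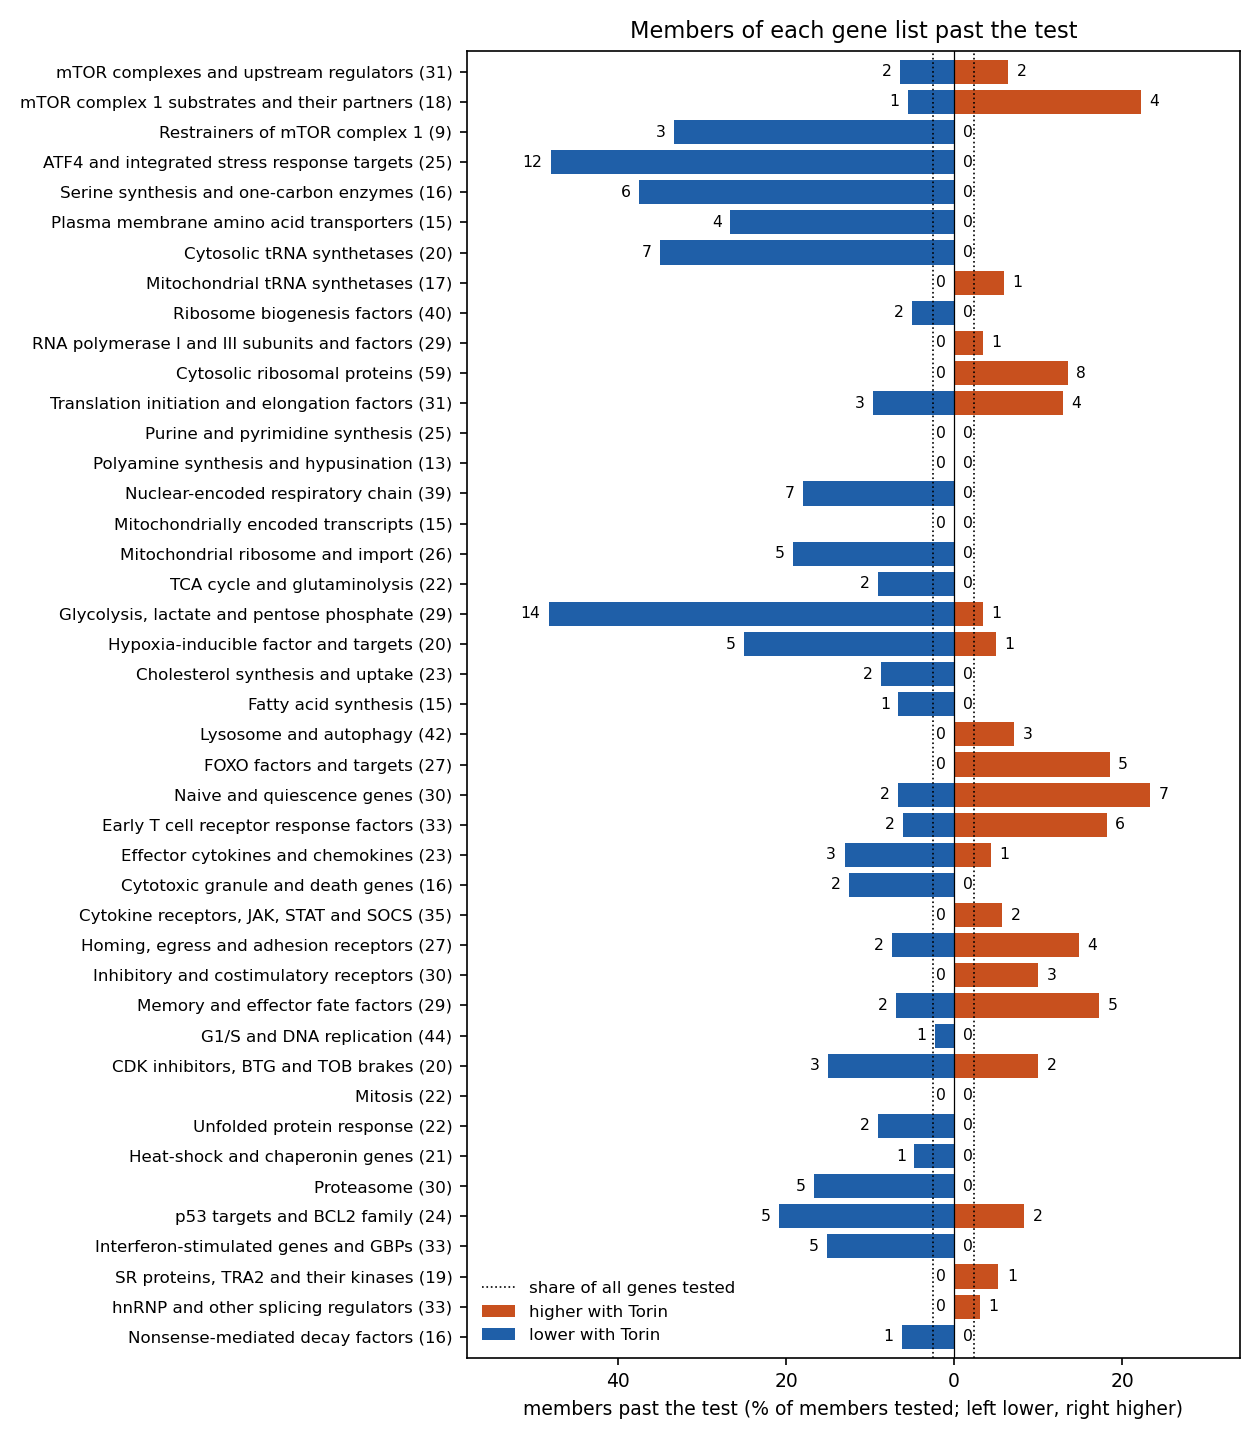
Members of each gene list past the test, as a percentage of the members tested (number in brackets), lower with Torin to the left and higher to the right, with the count at each bar. Dotted lines mark the shares among all genes tested, 2.56% lower and 2.38% higher, and the bars for ATF4 targets (12 lower) and glycolysis (14 lower) reach farthest to the left.

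Of the genes of the mTOR complexes and their regulators, 12.9% passed the test, against 4.94% of all genes. Mtor, the catalytic subunit, stood at 11.2, 12.8, 13.2 and 9.34 CPM in stimulated 1 to 4 and at 11.3, 12.0 and 13 CPM in Torin 1, 3 and 4, with a log2 change of 0.06 (SE 0.17, adjusted p = 0.904, edgeR quasi-likelihood test). Rptor had a log2 change of 0.89 (adjusted p = 0.148) and Rictor of 0.38 (adjusted p = 0.293). Of 31 genes of the complexes and their regulators, 2 rose and 2 fell, with a median log2 change of 0.16. Lamtor4 and Lamtor3, subunits of the Ragulator scaffold that brings complex 1 to lysosomes, fell by 0.99 and 0.73 on the log2 scale. Mlst8, a subunit of both complexes, and Pik3cd, the leukocyte PI3 kinase subunit, rose by 0.78 and 0.76. These 4 calls held in 3, 2, 0 and 0 refits, and only that of Lamtor4 held with the block (adjusted p = 0.0455, against 0.0745, 0.0817 and 0.0638).

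Among 18 substrates of complex 1 and their partners, 1 fell and 4 rose. Eif4ebp1 encodes 4E-BP1, the cap-binding repressor that complex 1 inactivates, and is also an ATF4 target. Its level was 645, 661, 722 and 379 CPM in stimulated 1 to 4 and 115, 129 and 127 CPM in Torin 1, 3 and 4. The groups lay far apart, and the Torin libraries sat near the naive mean of 119 CPM (log2 change -2.28, SE 0.23, adjusted p = 0.00557). Pdcd4, a translation inhibitor that S6 kinase marks for destruction, rose from 8.39, 4.41, 7.53 and 7.34 to 20, 25.2 and 32.2 CPM (log2 change 1.9, adjusted p = 0.0121, held in 6 refits). Maf1, the repressor of RNA polymerase III, rose from 50.5, 34.1, 38.6 and 28.4 to 94.0, 99.5 and 96.0 CPM (log2 change 1.35, adjusted p = 0.0135, held in 5). Both genes were higher in every Torin library than in any stimulated one. Ulk1, which starts autophagy, and Eif4b, a helicase cofactor in initiation, rose by 1.06 and 0.61, but each call held in 1 refit and neither with the block (adjusted p = 0.0810 and 0.0808).

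Of 9 genes whose products restrain complex 1, 3 fell and none rose. Sesn2, which senses leucine, stood at 22.4, 19.1, 14.9 and 12.7 CPM in stimulated 1 to 4 and at 0.721, 2.06 and 1.36 CPM with Torin (log2 change -3.64, adjusted p = 0.00746). Ddit4, known as REDD1, stood at 20, 16.4, 11.9 and 12.9 CPM and at 1.52, 0.942 and 1.45 CPM (log2 change -3.55, adjusted p = 0.00332). Both were below their naive means of 3.67 and 9.52 CPM in every Torin library. Trib3, the third, also belongs to the ATF4 targets.

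ATF4 is the transcription factor of the integrated stress response and of complex 1 signalling, and it induces amino acid synthesis and transport. Of 25 targets tested out of 26 listed, 12 fell and none rose, 21 of 25 had a negative log2 change, and the median was -1.51, against -0.01 for all genes. Trib3, a pseudokinase that binds AKT and ATF4, stood at 34.5, 34.4, 26.7 and 16.0 CPM in stimulated 1 to 4 and at 0.567, 1.19 and 1.26 CPM in Torin 1, 3 and 4 (log2 change -4.79, SE 0.43, adjusted p = 0.00332). Cth, which makes cysteine from cystathionine, stood at 17.0, 37.1, 21.6 and 9.98 CPM and at 0.545, 0.193 and 0.460 CPM (log2 change -5.74, SE 0.61, adjusted p = 0.00677). For both genes the lowest stimulated library was stimulated 4, still over 12-fold above the highest Torin library. Chac1, which degrades glutathione, stood at 32.8, 33.6, 39.9 and 12.0 CPM and at 1.92, 1.05 and 1.89 CPM (log2 change -4.19, adjusted p = 0.00746), and its call ended without Torin 3 (adjusted p = 0.0510). Pycr1, an enzyme of proline synthesis, fell from 34.9, 31.3, 17.0 and 17.9 to 4.36, 3.73 and 2.51 CPM (log2 change -2.84, adjusted p = 0.00899, held in 6 refits).

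Asns, which makes asparagine, fell from 17.3, 38.2, 34.5 and 44.0 to 4.08, 4.54 and 10.5 CPM (log2 change -2.39, adjusted p = 0.0278, held in 3 refits). Cebpb, a partner of ATF4, fell by 2.54 on the log2 scale (held in 4 refits), Ddit3, also known as CHOP, by 1.25 (held in 1) and Aldh18a1, which starts proline synthesis, by 1.05 (held in 1). Ddit3 did not pass with the block (adjusted p = 0.0671). The remaining members past the test, Sesn2, Ddit4, Eif4ebp1 and Slc7a5, are given with their other roles. Atf4 itself stood at 197, 214, 207 and 120 CPM in stimulated 1 to 4 and at 89.8, 116 and 101 CPM with Torin, lower in every Torin library without passing the test (log2 change -0.85, adjusted p = 0.0651), though it passed without stimulated 4. Other members had other patterns. Atf3, a stress-induced factor, had a log2 change of 0.65 (adjusted p = 0.0537). Slc7a11, the cystine transporter, stood at 11.2 CPM in stimulated 2, the library with granulocyte markers, and between 1.29 and 1.75 CPM in the other 6.

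Promoters of 23 of the 26 ATF4 targets were matched by symbol in RefSeq (build GRCm38.p6, from 250 bases before to 50 bases after each start). The letters TGATGNAA, the composite element bound by ATF4 and C/EBP factors, were searched on both strands. They occurred in 9 of 26 promoters of these genes (34.6%), against 3.97% of all 32851 promoters of that length. None of the 15 promoters matched for serine and one-carbon genes held them. The 4 promoters with the letters whose genes fell are shown, each 5′ to 3′ on its gene's strand with the matched letters, or their reverse complement, in capitals. They lie at chr2:152344011-152344310 (Trib3, minus strand), chr2:119350992-119351291 (Chac1, plus strand), chr6:7693160-7693459 (Asns, minus strand) and chr11:120643699-120643998 (Pycr1, minus strand). Of the other genes with the letters, 4 did not pass, with log2 changes from -1.51 (Slc7a11) over 0.65 (Atf3) to 2.25, and Fgf21 was not tested. A match is a description of letters and not a measured binding site.
Trib3: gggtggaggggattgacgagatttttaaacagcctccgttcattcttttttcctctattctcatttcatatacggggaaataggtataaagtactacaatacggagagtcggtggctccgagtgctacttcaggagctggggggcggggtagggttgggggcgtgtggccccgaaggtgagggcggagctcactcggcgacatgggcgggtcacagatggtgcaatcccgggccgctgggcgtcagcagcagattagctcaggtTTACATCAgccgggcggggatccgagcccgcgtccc
Chac1: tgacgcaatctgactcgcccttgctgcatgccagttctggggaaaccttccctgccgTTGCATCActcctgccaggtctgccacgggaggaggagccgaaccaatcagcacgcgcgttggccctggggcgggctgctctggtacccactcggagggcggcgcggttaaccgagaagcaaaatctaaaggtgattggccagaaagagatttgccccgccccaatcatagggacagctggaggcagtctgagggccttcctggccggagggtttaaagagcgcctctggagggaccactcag
Asns: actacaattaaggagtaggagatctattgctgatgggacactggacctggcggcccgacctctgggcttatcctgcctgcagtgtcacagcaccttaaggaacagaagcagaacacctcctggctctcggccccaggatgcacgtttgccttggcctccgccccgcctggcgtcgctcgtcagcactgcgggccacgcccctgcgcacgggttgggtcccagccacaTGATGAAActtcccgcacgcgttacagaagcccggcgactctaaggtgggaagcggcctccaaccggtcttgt
Pycr1: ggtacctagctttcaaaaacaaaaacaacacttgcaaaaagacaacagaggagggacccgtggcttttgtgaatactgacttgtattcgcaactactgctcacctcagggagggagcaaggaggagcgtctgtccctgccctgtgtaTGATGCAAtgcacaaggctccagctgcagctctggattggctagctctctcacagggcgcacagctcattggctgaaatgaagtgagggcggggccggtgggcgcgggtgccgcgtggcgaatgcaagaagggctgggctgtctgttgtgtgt

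The serine pathway turns a glycolytic intermediate into serine, which feeds one-carbon units to nucleotide synthesis. Of 16 genes tested, 6 fell and none rose, with a median log2 change of -0.63. Phgdh, the first enzyme, stood at 421, 412, 284 and 293 CPM in stimulated 1 to 4 and at 51.3, 45.5 and 49.3 CPM with Torin (log2 change -2.86, SE 0.20, adjusted p = 0.00224). Psat1, the next enzyme, stood at 171, 151, 130 and 133 CPM and at 27.6, 19.1 and 35.7 CPM (log2 change -2.41, adjusted p = 0.00394). Psph, the last, stood at 146, 134, 122 and 109 CPM and at 13.6, 15.5 and 20 CPM (log2 change -2.96, SE 0.19, adjusted p = 0.00224). All 3 enzymes of the pathway thus lay in Torin libraries far below every stimulated library, and the calls held in all 7 refits. The mitochondrial one-carbon enzymes Mthfd2, Shmt2 and Mthfd1l fell by 1.5, 1.04 and 0.88. The call of Mthfd1l held in no refit and not with the block (adjusted p = 0.0961).

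Of 15 amino acid transporters of the plasma membrane, 4 fell and none rose. Slc7a3, a carrier of arginine and lysine, stood at 23.8, 39.3, 17.8 and 21.6 CPM in stimulated 1 to 4 and at 1.40, 1.52 and 2.02 CPM with Torin (log2 change -3.96, SE 0.33, adjusted p = 0.00332). Slc7a5, which imports leucine and other large neutral amino acids, stood at 97.3, 87.9, 80.7 and 57.9 CPM and at 27.0, 28.2 and 29.5 CPM (log2 change -1.52, adjusted p = 0.00919, held in 5 refits). Torin libraries kept over 3 times the naive mean of Slc7a5, 8.11 CPM, in every case. Slc1a4 and Slc6a9, carriers of neutral amino acids and glycine, fell by 2.30 and 2.28, but neither passed with the block (adjusted p = 0.0558 and 0.0945) and their calls held in 3 and 0 refits.

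Cytosolic tRNA synthetases load amino acids onto tRNA for translation. Of 20 tested, 7 fell and none rose, and all 20 had a negative log2 change, with a median of -0.61. Groups did not overlap for 14 of them, against 22.0% of all genes tested. With library totals alone 3 fell. Nars, which loads asparagine, stood at 188, 194, 177 and 139 CPM in stimulated 1 to 4 and at 53.8, 61.1 and 54.3 CPM with Torin (log2 change -1.63, SE 0.15, adjusted p = 0.00379). Sars, for serine, stood at 185, 181, 138 and 142 CPM and at 63.3, 57.0 and 63.8 CPM (log2 change -1.40, adjusted p = 0.00746, held in 6 refits). Yars, Cars, Gars, Tars and Iars fell by 1.35, 1.33, 1.28, 1.06 and 0.86, held in 4, 1, 2, 2 and 2 refits, and did not pass with the block (adjusted p between 0.0576 and 0.0966). With the block, 2 members of the list passed. Mitochondrial synthetases had a median of 0.13, and of 17 tested only Tars2 passed, higher by 0.73 (not with the block, adjusted p = 0.0599).

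**Figure D3:**
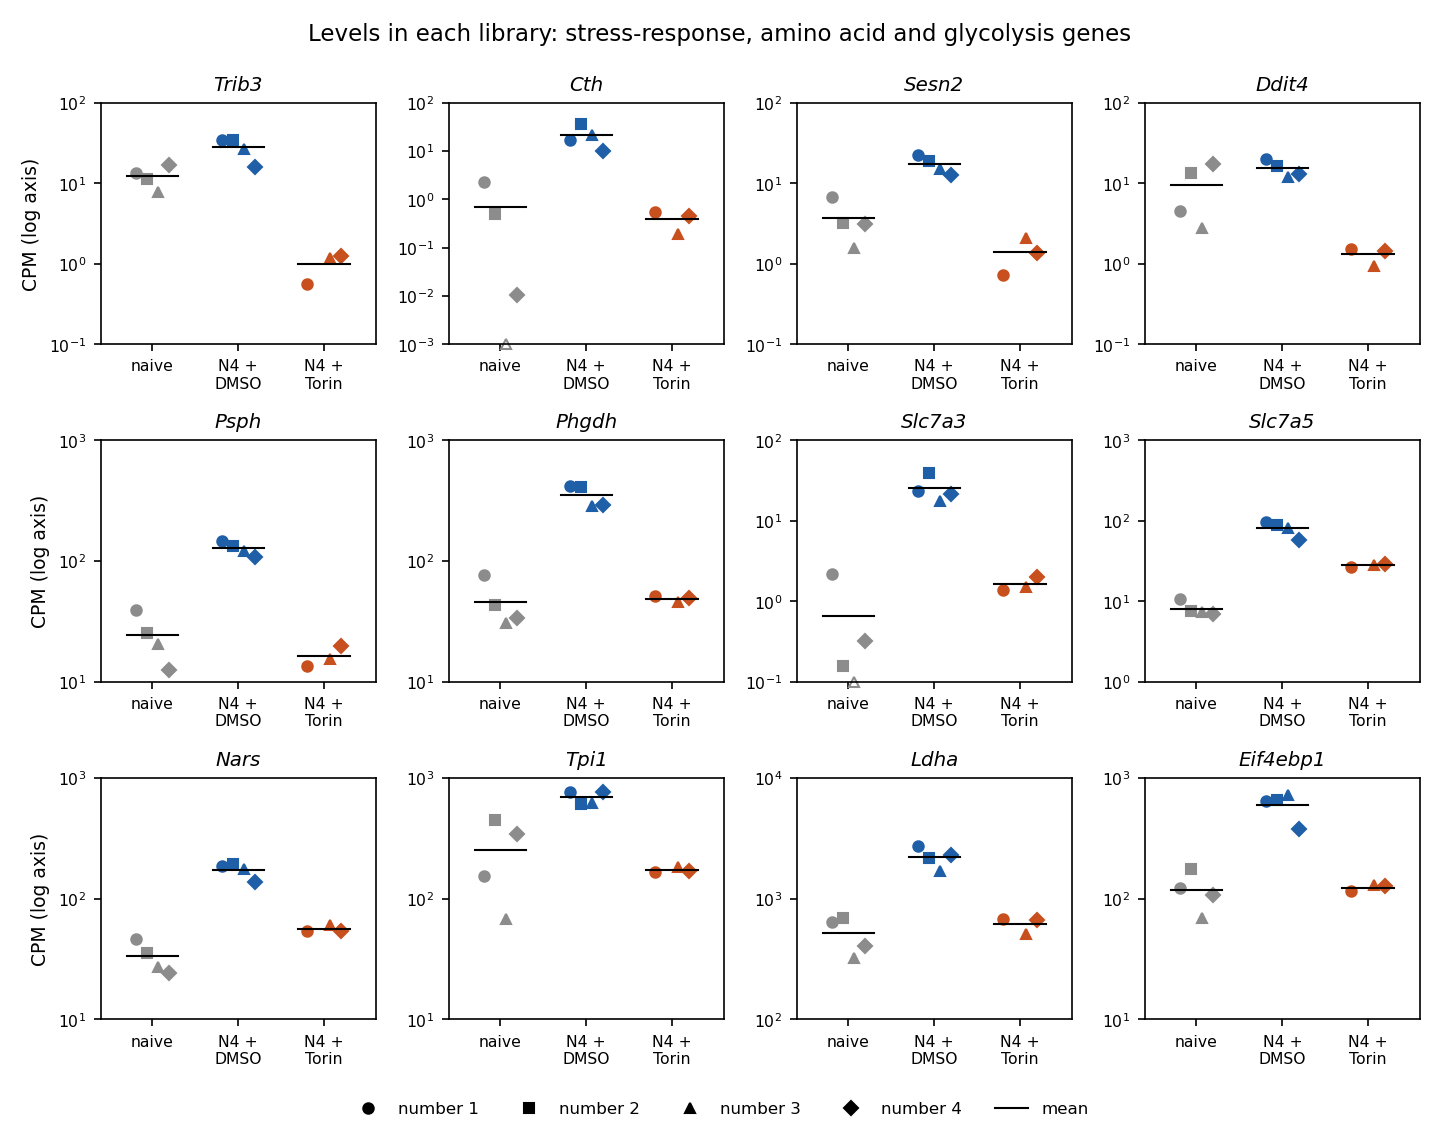
Level of 12 genes in each library (CPM, log axis) in naive, stimulated (N4 + DMSO) and Torin (N4 + Torin) groups, with marker shapes for replicate numbers, lines for group means and open markers on the axis for a level of 0. In each panel all 3 Torin libraries lie below all 4 stimulated libraries, from Trib3 (0.567 to 1.26 against 16.0 to 34.5 CPM) to Slc7a5 (27.0 to 29.5 against 57.9 to 97.3 CPM).

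Of 40 ribosome biogenesis factors, 2 fell, Rrp12 by 0.84 and Ebna1bp2 by 0.62, and the median log2 change was -0.25. With library totals alone none of them fell and 1 rose. Rrp12, needed for export of both ribosomal subunits, stood at 18.1, 18.4, 18.1 and 18.4 CPM and at 9.04, 11.8 and 9.81 CPM, still above its naive mean of 2.11 CPM. Neither passed with the block (adjusted p = 0.0643 and 0.0680), and the calls held in 2 and 1 refits. Among 59 cytosolic ribosomal proteins, 8 rose and none fell, with a median log2 change of 0.26. With library totals alone 22 ribosomal protein genes rose and 1 fell, and with the block 1 rose. These genes have many processed copies, among which the authors' counting could split reads, so single members are uncertain.

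Of 31 translation factors, 4 rose and 3 fell. The 4 that rose were all elongation factors: Eef1a1 by 0.78, Eef2 by 0.70, Eef1b2 by 0.66 and Eef1g by 0.59. Eef1a1, which delivers tRNA to the ribosome, stood at 1220, 1131, 1220 and 1117 CPM and at 2047, 1933 and 2046 CPM (adjusted p = 0.0121, held in 4 refits). Eif3c and Eif2s2, initiation factors, fell by 0.83 and 0.85, and Eef1e1, which belongs to the tRNA synthetase complex, by 1.05. Of these 7, Eif3c alone passed with the block, where the others had adjusted p between 0.0596 and 0.0876. Eef1a1 has many processed copies too. RNA polymerase I and III genes had 1 of 29 past the test, Maf1.

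Glycolysis turns glucose into pyruvate, which Ldha makes into lactate. Of 29 genes of glycolysis, lactate and the pentose phosphate branch tested, 14 fell and 1 rose, and the median log2 change was -0.94. The log2 change was negative for 27, of which 19 had no overlap between groups, against 22.0% of all genes tested in either direction. With library totals alone 8 fell and 1 rose. Tpi1, triose phosphate isomerase, stood at 770, 606, 626 and 771 CPM in stimulated 1 to 4 and at 168, 185 and 169 CPM with Torin (log2 change -1.99, SE 0.15, adjusted p = 0.00232). Ldha, which makes lactate, stood at 2719, 2165, 1710 and 2287 CPM and at 677, 506 and 670 CPM (log2 change -1.85, adjusted p = 0.00669). Naive libraries ranged from 68.6 to 448 CPM for Tpi1 and from 322 to 693 CPM for Ldha, and both calls held in all 7 refits. Slc16a3, the lactate exporter MCT4, stood at 38.0, 23.0, 30.0 and 38.5 CPM and at 6.06, 3.81 and 2.44 CPM (log2 change -2.98, adjusted p = 0.00849, held in 6 refits).

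Among other enzymes of the pathway Pgk1 fell by 1.42 (held in 7 refits), Eno1 by 1.5 (6), Pkm by 1.33 (5), Pfkl by 1.48 (4), Pfkp by 1.49 (3), Pgam1 by 0.85 (3) and Gpi1 by 0.94 (2). Members of the first step fell too. Hk2, the inducible hexokinase, stood at 49.0, 51.5, 67.5 and 56.2 CPM and at 33.2, 37.4 and 30.3 CPM (log2 change -0.74, adjusted p = 0.0387, held in 2 refits), over 4 times its naive mean of 7.04 CPM. Slc2a1, the glucose transporter GLUT1, fell by 0.96 and Hk1 by 1.35, and Aldoa (ENSMUSG00000030695) by 0.69. Hk2, Slc2a1, Hk1, Aldoa and Gpi1 did not pass with the block (adjusted p between 0.0504 and 0.0856), which left 9 lower members and none higher. Pgls, of the pentose phosphate branch, was the 1 that rose, by 0.75, and it did not pass with the block either (adjusted p = 0.0600).

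HIF1A targets overlap with glycolysis. Of 20 tested, 5 fell and 1 rose, with a median log2 change of -0.76. Vegfa, a vascular growth factor, stood at 12.0, 11.4, 6.55 and 6.86 CPM and at 1.46, 0.526 and 0.486 CPM (log2 change -3.48, adjusted p = 0.0136, held in 6 refits). P4ha1, Higd1a and Ero1l fell by 1.48, 1.40 and 1.27. Ndrg1, also known as hypoxia-induced, went the other way and rose from 9.34, 10.9, 16.1 and 7.32 to 36.8, 45.6 and 34.1 CPM (log2 change 1.83, adjusted p = 0.0136, held in 5 refits).

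Among mitochondrial lists, 7 of 39 nuclear-encoded subunits of the respiratory chain fell and none rose, with 35 negative log2 changes and a median of -0.31. Uqcrq, a complex III subunit, stood at 3574, 4408, 5483 and 4035 CPM and at 1868, 1858 and 1651 CPM (log2 change -1.29, adjusted p = 0.0109, held in 5 refits). Cycs, cytochrome c, fell by 1.18, and did not pass with the block (adjusted p = 0.0716). In the mitochondrial ribosome and import list 5 of 26 fell, led by the chaperonin Hspe1, which stood at 3456, 4397, 4521 and 4744 CPM and at 1751, 1379 and 1921 CPM (log2 change -1.35, adjusted p = 0.00995, held in 5 refits), far above its naive mean of 280 CPM. With the block 1 member passed in each of these lists. Of 22 genes of the TCA cycle and glutaminolysis 2 transaminases changed. Gpt2 fell by 2.82 and Got2 fell by 0.58, neither with the block (adjusted p = 0.106 and 0.0969).

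In lists of SREBP-driven lipid genes, 8.7% of cholesterol and 6.67% of fatty acid genes passed the test, against 4.94% of all genes. Of 23 genes of cholesterol synthesis and uptake 2 fell, Mvd by 1.3 and Pmvk by 1.04, with a median log2 change of -0.52. These calls held in 0 and 1 refits, while with the block 4 members fell. With library totals alone none passed. The log2 change was negative for 19 of the 23. Of these, 9 had no overlap between groups, against 22.0% of all genes tested in either direction. Hmgcs1, a typical SREBP2 target, had a log2 change of 0.24 (adjusted p = 0.769). Of 15 fatty acid genes Elovl6 fell by 1.98 (held in 1 refit, adjusted p = 0.0517 with the block).

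Lysosome and autophagy genes, which TFEB factors activate when complex 1 is off, had 3 of 42 that rose and a median of -0.01, as over all genes (0.09 with library totals alone, against 0.11). The 3 were Map1lc3b, the autophagosome protein LC3B, from 140, 102, 120 and 129 to 253, 298 and 265 CPM (log2 change 1.15, adjusted p = 0.00899, held in 6 refits), Npc2, a cholesterol carrier, by 1.23, and Ulk1.

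Of 27 FOXO factors and targets, 5 rose and none fell, with 23 positive log2 changes and a median of 0.35. Bcl2l11, the pro-apoptotic protein BIM, rose from 8.47, 6.65, 12.4 and 8.59 to 21.2, 37.0 and 36.3 CPM (log2 change 1.80, adjusted p = 0.0152, held in 4 refits). Btg1, an inhibitor of proliferation, rose from 296, 181, 193 and 250 to 475, 499 and 576 CPM (log2 change 1.17, adjusted p = 0.0203, held in 3). Irs2 rose by 1.45, and the homing receptor Ccr7 is given below. All 5 also passed with the block. Foxo1 itself had a log2 change of 0.29 (adjusted p = 0.543). Il7r, Klf2 and S1pr1, targets that stood at naive means of 113, 575 and 176 CPM, did not pass, with Torin levels of at most 6.71, 32.8 and 1.16 CPM. Klf2 stood at 58.5 CPM in stimulated 1 and at 2.74, 3.04 and 2.30 CPM in stimulated 2 to 4, against 29.0, 32.8 and 16.2 CPM with Torin, and it passed without stimulated 1.

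The forkhead letters GTAAACA, searched on both strands, occurred in 4 of 27 promoters matched for 22 FOXO genes (14.8%), against 3.65% of all promoters. Those of the 2 genes that rose and hold the letters are shown as above, from chr2:128125788-128126087 (Bcl2l11, plus strand) and chr10:96616751-96617050 (Btg1, plus strand). The others with the letters, Txnip and Sesn1, had log2 changes of -1.08 and 0.27 and did not pass. Of the E-box letters CACGTG, 9 of 39 promoters of ribosome biogenesis factors held a copy (23.1%), against 7.15% of all, but none of the 2 genes of that list that fell was among them. The searches in tRNA synthetase, lysosome and cholesterol genes are void, because fewer than 80% of their members were matched to a promoter (65.0%, 79.1% and 66.7%).
Bcl2l11: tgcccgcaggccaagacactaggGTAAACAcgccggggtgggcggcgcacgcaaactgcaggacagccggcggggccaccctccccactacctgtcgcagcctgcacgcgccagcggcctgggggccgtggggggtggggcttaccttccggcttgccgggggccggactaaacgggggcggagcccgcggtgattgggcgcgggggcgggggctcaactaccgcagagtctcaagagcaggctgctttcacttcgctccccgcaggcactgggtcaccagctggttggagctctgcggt
Btg1: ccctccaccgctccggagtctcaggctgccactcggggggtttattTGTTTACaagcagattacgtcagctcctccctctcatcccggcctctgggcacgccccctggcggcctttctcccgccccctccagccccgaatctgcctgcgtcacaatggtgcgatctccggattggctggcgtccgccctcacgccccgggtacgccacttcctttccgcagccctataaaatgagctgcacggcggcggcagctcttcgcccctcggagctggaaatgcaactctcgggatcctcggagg

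Of 23 genes of effector cytokines and chemokines, 3 fell with Torin and 1 rose, and with the block 8 fell and 1 rose. Ifng, interferon gamma, stood at 1651, 3171, 2907 and 3710 CPM in stimulated 1 to 4 and at 304, 541 and 567 CPM in Torin 1, 3 and 4 (log2 change -2.6, SE 0.34, adjusted p = 0.0107), and the call ended without Torin 3 (adjusted p = 0.0656). Il2, the T cell growth factor, stood at 288, 490, 248 and 337 CPM and at 71.1, 33.9 and 96.6 CPM (log2 change -2.34, adjusted p = 0.0210, held in 4 refits). Both stayed above their naive means of 57.5 and 9.03 CPM in every Torin library. Lif fell by 1.89 (held in 4 refits), while Tnf, at 26.7 to 48.9 CPM in stimulated and 29.9 to 43.1 CPM in Torin libraries, differed by 0.05 on the log2 scale (SE 0.24, adjusted p = 0.941).

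Ccl5, a chemokine of memory and effector CD8+ cells, was the 1 that rose. It stood at 171, 204, 384 and 230 CPM in stimulated libraries and at 1542, 4238 and 2228 CPM with Torin (log2 change 3.43, SE 0.40, adjusted p = 0.00843), a range that spans its naive mean of 1597 CPM. With the block 8 members of the list fell, against 3. Among 16 cytotoxic genes 2 fell. Prf1, perforin, stood at 81.5, 32.8, 29.2 and 64.7 CPM and at 5.57, 8.29 and 8.20 CPM (log2 change -2.82, adjusted p = 0.0142, held in 4 refits), and Gzmc fell by 2.95 (held in 3, adjusted p = 0.0515 with the block). Gzmb, granzyme B, spread widely, at 323, 1159, 180 and 1245 CPM in stimulated 1 to 4 and 87.6, 94.5 and 183 CPM with Torin. Its log2 change of -2.58 did not pass (adjusted p = 0.0795), stimulated 3 and Torin 4 overlapped, and the call began without stimulated 3.

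Of 33 genes of the early receptor response, 6 rose with Torin and 2 fell, with a median log2 change of 0.49. With the block 4 rose and 4 fell. Myc, the growth regulator, stood at 240, 222, 234 and 220 CPM in stimulated 1 to 4 and at 388, 398 and 392 CPM with Torin (log2 change 0.78, SE 0.11, adjusted p = 0.0121). Both groups were tight and did not overlap, but the call held in 5 refits and not with the block (adjusted p = 0.0531). Fos rose from 5.59, 5.77, 3.38 and 3.13 to 24.2, 35.9 and 14.0 CPM (log2 change 2.47, adjusted p = 0.0143, held in 5). The phosphatases Dusp5 and Dusp2, which switch off MAP kinases, rose by 1.64 (held in 6) and 1.27 (held in 3), and Relb and Nfatc1 rose by 0.55 and 0.63 (each held in 1, neither with the block, adjusted p = 0.103 and 0.0932). Irf8 fell from 390, 274, 189 and 345 to 85.6, 66.9 and 88.1 CPM (log2 change -1.9, adjusted p = 0.0121, held in 5), and Fosl1 fell by 1.71 (held in 6).

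Other activation genes showed no change past the test. Il2ra, the high-affinity IL-2 receptor chain, stood at 166, 201, 152 and 174 CPM in stimulated and 167, 155 and 196 CPM in Torin libraries, more than 20 times its naive mean of 7.34 CPM (log2 change -0.01, SE 0.14, adjusted p = 0.988). Nr4a1, Irf4 and Cd69 had log2 changes of 0.50, 0.48 and 0.49 (adjusted p = 0.291, 0.169 and 0.221). Of 35 cytokine receptor, JAK, STAT and SOCS genes, 2 rose, among them Jak2 by 0.96, and neither passed with the block (adjusted p = 0.0506 for Jak2).

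Homing receptors moved in both directions. Of 27 tested, 4 rose and 2 fell. Cxcr4, the receptor of CXCL12, stood at 1.68, 1.56, 1.45 and 1.06 CPM in stimulated 1 to 4 and at 14.1, 27.2 and 12.3 CPM in Torin 1, 3 and 4 (log2 change 3.64, SE 0.33, adjusted p = 0.00332). Ccr7, which guides cells into lymph nodes, stood at 562, 351, 317 and 251 CPM and at 1308, 1089 and 1102 CPM (log2 change 1.65, adjusted p = 0.0178, held in 4 refits). Every Torin library was above the naive mean of Ccr7, 317 CPM, and most below that of Cxcr4, 27.0 CPM. Cd44, the adhesion receptor used as a mark of activated cells, stood at 16.9, 18.2, 18.5 and 20 CPM and at 57.4, 68.4 and 81.5 CPM (log2 change 1.91, SE 0.15, adjusted p = 0.00307). All 3 Torin libraries were thus far above the stimulated ones and above the naive mean of Cd44, 12.2 CPM. Itgb2 and Icam1, the beta chain of LFA-1 and its ligand, fell by 1.69 and 1.16 (held in 3 and 4 refits).

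The list of naive and quiescence genes held 7 that rose and 2 that fell of 30, with a median of 0.61. Besides Cxcr4, Ccr7 and Btg1, the 7 included Gimap6, Cd27 and Bach2, higher by 1.16, 1.09 and 1.09 (each held in 2 refits). The paralogs Ly6c2 and Ly6c1, whose reads may be split between them, fell by 2.1 and 1.44. Tcf7, the factor of stem-like T cells, stood at 53.2 CPM in stimulated 1 and 15.2 to 19.7 CPM in the other stimulated libraries, and at 73.6, 52.4 and 57.4 CPM with Torin, so that Torin 3 overlapped stimulated 1. Its log2 change of 1.22 did not pass (adjusted p = 0.150) and passed without stimulated 1.

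Among 30 inhibitory and costimulatory receptors, 3 rose and none fell. Cd28, the main costimulatory receptor, stood at 48.6, 41.1, 49.9 and 43.2 CPM and at 118, 122 and 142 CPM (log2 change 1.48, SE 0.13, adjusted p = 0.00332). Lag3, an inhibitory receptor, stood at 79.6, 65.0, 69.3 and 111 CPM and at 195, 189 and 202 CPM (log2 change 1.27, adjusted p = 0.0162, held in 4 refits), against a naive mean of 4.29 CPM. Cd27 was the third.

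Of 29 factors of memory and effector fate, 5 rose and 2 fell, with a median of 0.40. Myb, a factor of stem-like memory cells, stood at 2.01, 1.99, 1.95 and 0.562 CPM and at 16.5, 16.0 and 9.16 CPM (log2 change 3.10, SE 0.45, adjusted p = 0.0143, held in 5 refits), around its naive mean of 13.3 CPM. Eomes, the T-box factor of memory cells, stood at 8.51, 4.65, 7.31 and 13.5 CPM and at 35.3, 29.0 and 39.6 CPM (log2 change 2.03, adjusted p = 0.0191, held in 4), above its naive mean of 7.28 CPM. Bach2, Bhlhe40 and Rora rose by 1.09, 0.76 and 1.84, and Hopx and Runx3 fell by 1.05 (held in 6) and 1.16. The calls of Bhlhe40, Rora and Runx3 held in 2, 0 and 0 refits and not with the block (adjusted p = 0.0671, 0.123 and 0.0997).

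**Figure D4:**
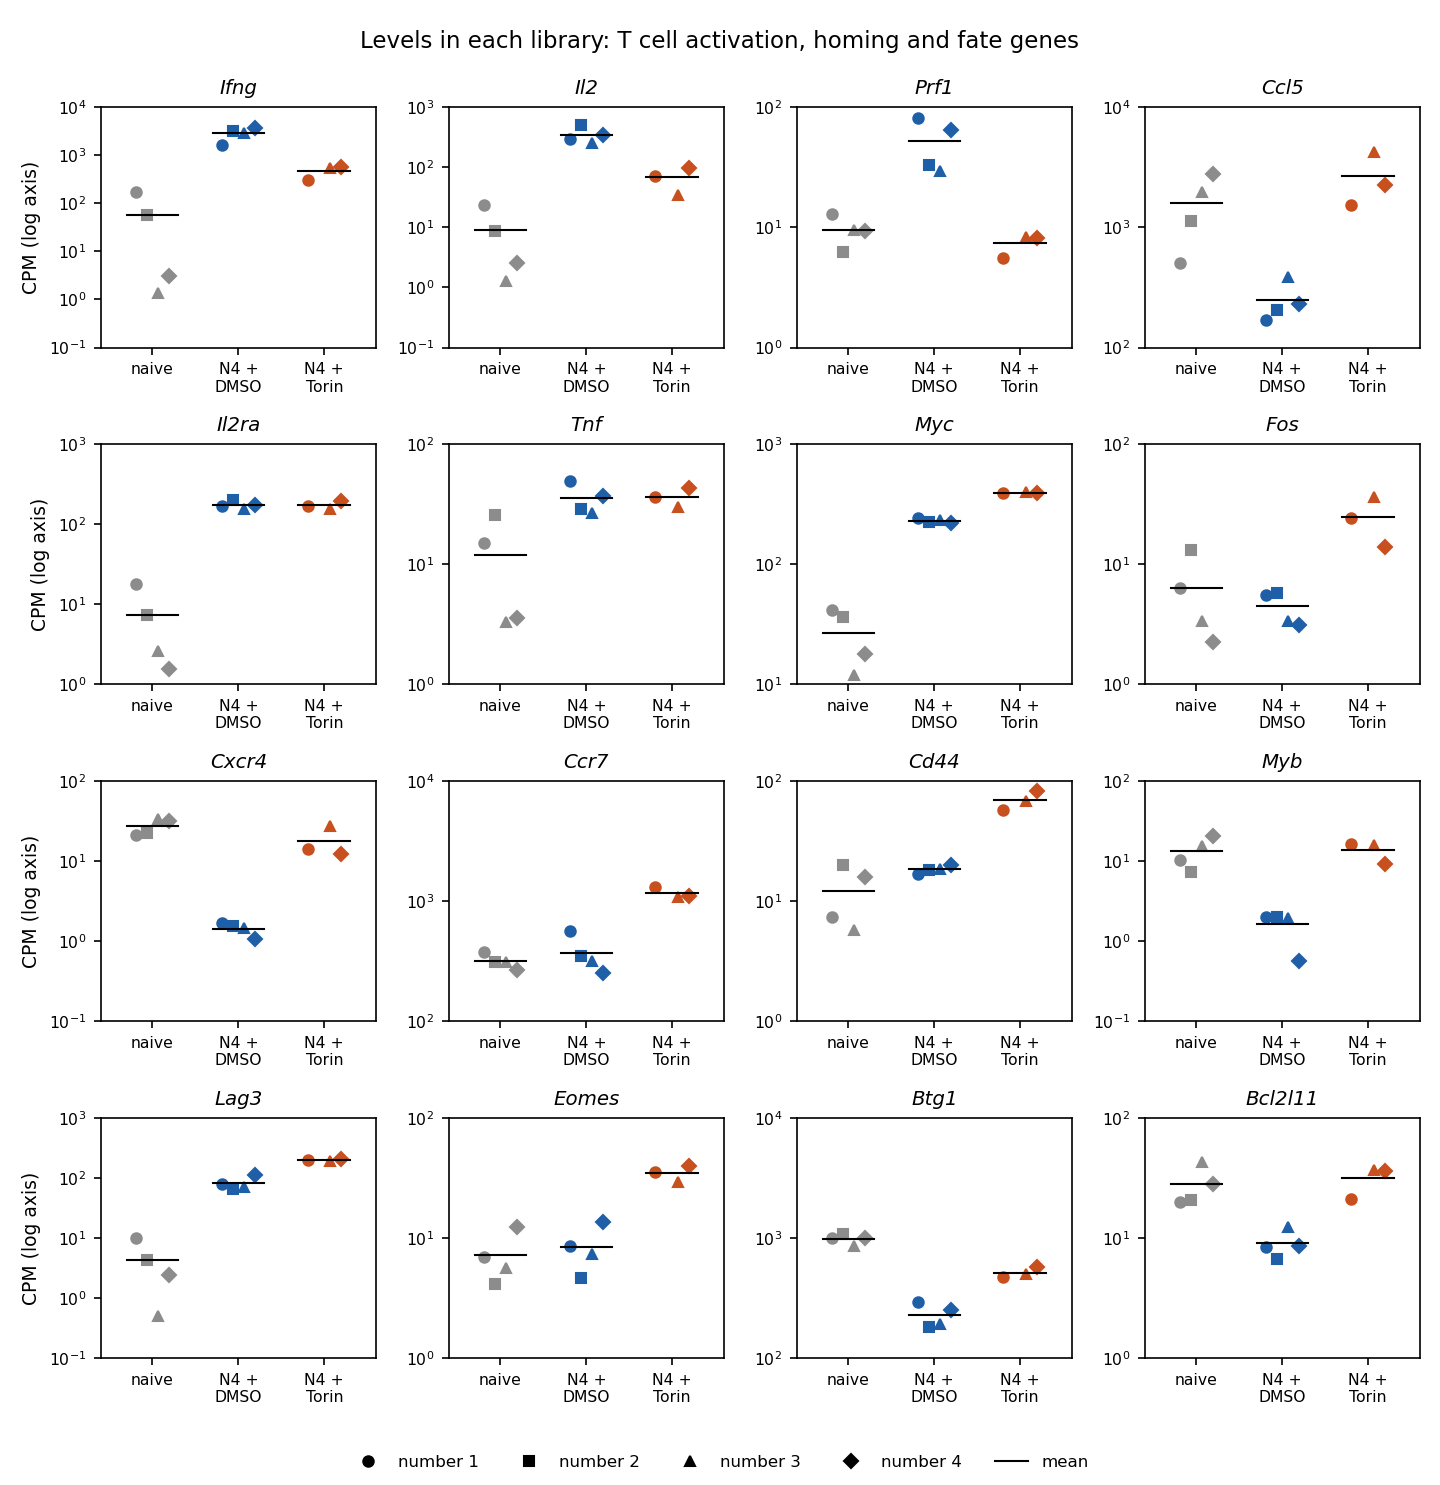
Level of 16 T cell genes in each library (CPM, log axis) in naive, stimulated (N4 + DMSO) and Torin (N4 + Torin) groups, with marker shapes for replicate numbers and lines for group means. Torin libraries lie below stimulated ones for Ifng, Il2 and Prf1, level with them for Il2ra and Tnf, and above them in the other 11 panels.

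At 12 h, 2.27% of G1/S and DNA replication genes and 25.0% of CDK inhibitors and brakes passed the test, against 4.94% of all genes. None of 22 mitosis genes passed. The G1/S and DNA replication list had 1 lower member of 44, Ccnd3, cyclin D3, which fell by 0.85 (held in 2 refits). Ccnd2, cyclin D2, stood at 652 to 844 CPM in stimulated and 993 to 1140 CPM in Torin libraries, without overlap and without passing (log2 change 0.53, adjusted p = 0.0620). Of 20 CDK inhibitors and brakes, 2 rose, Pdcd4 and Btg1, and 3 fell. Cdkn1a, the inhibitor p21, fell from 726, 347, 285 and 606 to 110, 101 and 98.1 CPM (log2 change -2.25, adjusted p = 0.0155, held in 4), near its naive mean of 96.9 CPM. Cdkn2d, p19, fell by 1.59 (held in 6) and Ccng1 by 1.43 (held in 3). Cdkn1b, p27, had a log2 change of 0.27 (adjusted p = 0.779).

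Members of the list of p53 targets and BCL2 family genes changed in both directions. Of 24 genes of the p53 and BCL2 lists 5 fell, Cdkn1a, Ccng1, Phlda3 by 1.70, Bax by 1.02 and Bcl2a1d by 0.83, and 2 rose, Bcl2l11 and Trp53inp1. Bcl2a1d, which has close paralogs, did not pass with the block (adjusted p = 0.0966). Trp53inp1, which acts in autophagy and cell death, stood at 8.70, 3.30, 8.83 and 7.70 CPM in stimulated 1 to 4 and at 39.0, 40.3 and 49.3 CPM with Torin (log2 change 2.59, adjusted p = 0.00939, held in 6 refits).

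In the unfolded protein response, Herpud1 and Sdf2l1 fell by 1.65 and 1.71 of 22 genes tested. The proteasome had 5 of 30 that fell. Psmb10, a catalytic subunit of the immunoproteasome, stood at 175, 159, 191 and 187 CPM and at 45.6, 49.7 and 51.0 CPM (log2 change -1.87, SE 0.13, adjusted p = 0.00224). Psmb8, another such subunit, fell by 0.76 (held in 4 refits, adjusted p = 0.0558 with the block). Psmb9, the remaining inducible subunit, differed by 0.06 on the log2 scale (SE 0.13, adjusted p = 0.856). Psmb5, Psma2 and Psma3, of the standard proteasome, fell by 0.67, 0.76 and 0.75, none with the block (adjusted p = 0.0776, 0.0980 and 0.113).

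Of 33 interferon-stimulated genes tested, 5 fell with Torin and none rose, 28 had a negative log2 change, and the median was -1.56. With the block 7 fell and 1 rose. Isg15 stood at 62.9, 210, 46.6 and 79.1 CPM in stimulated 1 to 4 and at 10.8, 8.51 and 17.2 CPM with Torin (log2 change -3.03, adjusted p = 0.0286, held in 3 refits). Bst2, tetherin, stood at 455, 617, 356 and 414 CPM and at 197, 159 and 133 CPM (log2 change -1.5, adjusted p = 0.0159, held in 4). Stimulated 2, the library with granulocyte markers, was highest for both, and both calls held without it. Ifit1, Irf7 and Ifi27 fell by 3.75, 2.37 and 1.79, and these calls ended without stimulated 2, among other libraries, where the highest adjusted p of any refit was 0.140, 0.161 and 0.108. Ifit1 did not pass with the block (adjusted p = 0.0941).

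The largest changes also included genes of no list. Rpph1, the RNA of ribonuclease P, stood at 156, 483, 267 and 664 CPM in stimulated 1 to 4 and at 23.7, 18.2 and 45.3 CPM with Torin, near its naive mean of 18.0 CPM (log2 change -3.75, adjusted p = 0.0174, held in 5 refits). Pck2, a mitochondrial enzyme of phosphoenolpyruvate synthesis, stood at 36.8, 37.9, 27.3 and 17.7 CPM and at 0.222, 2.31 and 3.83 CPM, but the call held in 1 refit and not with the block (log2 change -3.81, adjusted p = 0.0435, 0.105 with the block). Dgat2, which makes triglycerides, fell from 22.7, 12.4, 12.4 and 17.1 to 1.24, 1.70 and 3.17 CPM (log2 change -2.99, held in 6). Tubb6, a tubulin, fell by 3.39 (held in 1), and Gys1, glycogen synthase, fell by 3.12 (held in 3, adjusted p = 0.0574 with the block).

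Ms4a4c and Ms4a4a, membrane genes of the CD20 family, rose together, Ms4a4c from 66.0, 44.3, 105 and 47.3 to 448, 410 and 385 CPM (log2 change 2.66, adjusted p = 0.00746) and Ms4a4a from 13.8, 25.0, 17.2 and 10.8 to 122, 95.6 and 85.8 CPM (log2 change 2.6, adjusted p = 0.00746). Cd83, a surface glycoprotein known from dendritic cells, stood at 19.0, 18.9, 14.4 and 23.6 CPM and at 79.2, 76.5 and 140 CPM (log2 change 2.38, adjusted p = 0.00709). It was the 1 of 11 dendritic cell and antigen presentation markers past the test, and the summed level of that list was 252 to 594 CPM in stimulated and 254 to 684 CPM in Torin libraries. Arl4d, Wfdc18, Rasgef1b and Ifi214 rose by 2.63, 2.61, 2.61 and 2.46 (held in 1, 6, 3 and 2 refits), Arl4d not with the block (adjusted p = 0.0562).

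The series title names Tra2b, a splicing activator whose transcript can include a poison exon with early stop codons, so that these transcripts are marked for decay. Total Tra2b stood at 96.5, 119, 128 and 102 CPM in stimulated 1 to 4 and at 139, 140 and 131 CPM with Torin (log2 change 0.30, SE 0.13, adjusted p = 0.247). Of its 9 annotated transcripts 3 hold an internal exon within the first coding intron, 276 nt long in Tra2b-206. They took 44.7%, 44.4%, 45.5% and 45.6% of Tra2b counts in stimulated 1 to 4 and 55.2%, 57.3% and 48.0% in Torin 1, 3 and 4. All Torin libraries were above all stimulated ones and below the naive libraries, which held 65.5% to 69.2%. The difference of means was 8.48 percentage points, with an exact two-sided permutation p of 0.0571, the smallest that 3 against 4 libraries allow. Within numbers 1, 3 and 4 the differences were 10.5, 11.8 and 2.41 points (exact sign-flip p = 0.25, also the smallest possible). The full-length coding transcript Tra2b-204 went from 53.9%, 53.8%, 52.9% and 52.5% to 41.0%, 40.5% and 49.8%.

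Over all genes, transcripts annotated as targets of nonsense-mediated decay or as retained introns took 4.54%, 4.08%, 4.18% and 3.92% of counts in stimulated 1 to 4 and 4.97%, 5.19% and 4.70% in Torin 1, 3 and 4, again with no overlap (difference 0.772 points, exact permutation p = 0.0571). Naive libraries held 5.47% to 6.58%, and the stimulated libraries stand in both differences. Over the 13 SR and TRA2 genes together these transcripts took 16.7% and 17.1% on average, with a difference of 0.386 points and overlap between groups (exact permutation p = 0.914). Of single genes, Srsf7 went from 14.4%, 12.7%, 12.9% and 13.2% to 22.6%, 19.8% and 17.4% (exact permutation p = 0.0571). Srsf3 stood at 26.5% to 32.6% in stimulated libraries and at 30.1%, 31.4% and 11.3% in Torin 1, 3 and 4. Its means were 29.7% and 24.2% (exact permutation p = 0.629), and only Torin 4 lay outside the stimulated range. Tra2a went from 47.1% to 56.4% in stimulated libraries to 66.6%, 70.5% and 54.3% (exact permutation p = 0.171). Among 19 SR, TRA2 and kinase genes only Clk1, the kinase of SR proteins, changed in level, higher by 0.75. Rbm39 rose by 0.68 among 33 hnRNP and other splicing regulators, and Magoh, an exon junction protein, fell by 1.15 among 16 decay factors. None of these 3 passed with the block (adjusted p = 0.0810, 0.0775 and 0.0737).

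Transcript usage, the share of a gene's counts in each of its transcripts, changed in 3 of 4122 genes tested, or 0.0728% (limma on log2 ratios, Simes and Benjamini-Hochberg adjusted p), while 578 had an unadjusted p under 0.05. With the block none passed, and edgeR's diffSpliceDGE called 18. Rcc2, a chromosome condensation regulator, used Rcc2-202 (15 exons) for 47.6%, 69.9%, 68.5% and 44.1% of its counts in stimulated 1 to 4 and for 0.238%, 0.176% and 0.196% in Torin 1, 3 and 4 (adjusted p = 0.00454), with Rcc2-201 (13 exons) in its place. Naive libraries held 0.485% to 17.4%. Zfp746, a zinc finger repressor, used Zfp746-203 for none of its counts in stimulated libraries and for 62.4%, 63.7% and 72.2% with Torin (adjusted p = 0.00454). Its main transcript in stimulated libraries, Zfp746-201, has 7 exons and 3651 nt, and Zfp746-203 has 7 exons and 3648 nt. How far reads tell these transcripts apart was not tested. Car12, a carbonic anhydrase, used Car12-202 for 83.2%, 66.8%, 78.3% and 77.7% and for none with Torin (adjusted p = 0.00538). Zfp746 stood at 5.69 to 10.6 CPM and Car12 at 3.50 to 7.01 CPM in the 7 libraries, low levels for a division among transcripts. In each gene the switch was between 2 protein-coding transcripts, and the level of the gene did not pass the test (adjusted p = 0.989, 0.114 and 0.441). All 3 usage calls held in all 7 refits, but not with the block (adjusted p = 0.255, 0.366 and 0.255). Tra2b (adjusted p = 0.506) and Ptprc, the CD45 gene known for exon skipping on activation (adjusted p = 0.914), were not past the test.

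**Figure D5:**
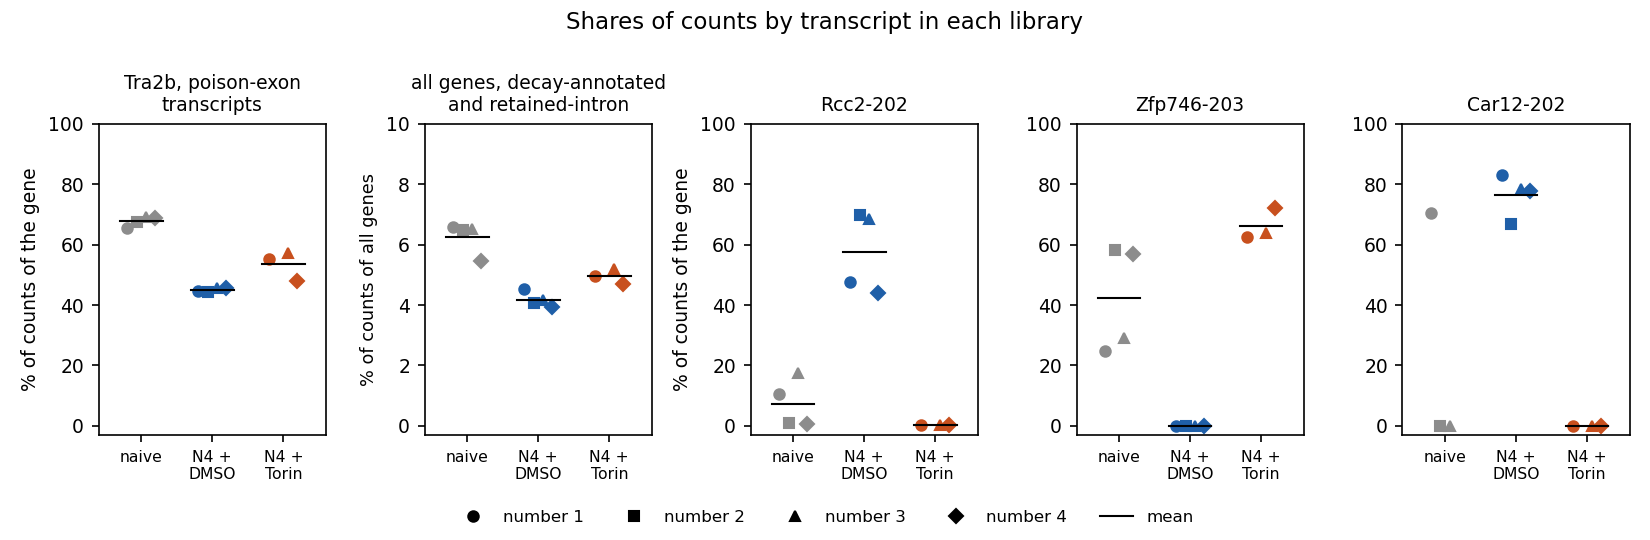
Share of counts in poison-exon transcripts of Tra2b, in decay-annotated and retained-intron transcripts of all genes, and in 1 transcript each of Rcc2, Zfp746 and Car12, by library (percent; lines are group means, marker shapes replicate numbers). Torin libraries (48.0% to 57.3%) lie between stimulated (44.4% to 45.6%) and naive (65.5% to 69.2%) in the Tra2b panel, and Car12 has no naive 4 point because the gene had no counts in the transcripts used there.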

How the data were processed

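RNA of OT-I CD8+ T cells was extracted with the miRNEasy Micro kit and made into libraries with a SMARTer ultra-low poly(A) kit, per the labels' protocols. The submitters' processing notes name STAR 2.7.1a, SAMtools 1.9, StringTie 2.1.0, R 4.0.5, DESeq2 1.30.1 and the mouse build mm39. The deposited tables hold estimated counts per gene and per transcript, whole numbers in the files, for which the notes list StringTie without stating the step it was used for; the annotation the authors used is not given in the sources used here. Symbols and transcript types came from GENCODE M21 (GRCm38) by identifier, which matched 94.1% of genes (at least 98.6% of counts) and 97.1% of transcripts (at least 99.2%). Strand use in counting is not stated, so overlapping antisense genes cannot be told apart.

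Libraries were grouped by labelled treatment. The 7 stimulated and Torin libraries were fitted alone with edgeR 4.0.16 in R 4.3.3 (TMM factors, filterByExpr with a minimum count of 10, quasi-likelihood F test, Benjamini-Hochberg adjusted p under 0.05); the common biological coefficient of variation was 0.66. Each adjusted p is from this test unless another is named. Transcript usage was tested with limma 3.58.1 on log2 ratios (prior 0.5 CPM, mean of at least 1 CPM), and shares with exact two-sided permutation tests. DESeq2 1.42.0, other scalings and filters, all 11 libraries, each library left out and the replicate block were alternatives. The tests were checked on simulated data, where the gene test missed most genes made to change. If the estimated counts are taken as reads, no library pair differed by less than sampling noise (lowest chi-square per gene 309.4, Torin 1 and Torin 3). The origin of the count totals is unknown, so the size of that noise is uncertain.

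Same-numbered libraries deviated together from their group means (r = 0.23, 0.41 and 0.59 for numbers 1, 3 and 4, against -0.44 to 0.11 for other pairs), so the numbers were taken to pair libraries, from these data and not from a stated design.

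Genes named were the 12 largest rises and 12 largest falls past the test with a log2 change of 1 or more in size, groups that did not overlap and a mean of at least 10 CPM in the group with more, without predicted genes and receptor segments, the 2 largest rises and falls of each list, and a set of mTOR, T cell and metabolic genes. For usage, the 10 genes of smallest p, Tra2b and Ptprc were taken, of which those past the test are described. The comparison, the lists and the named set were chosen with earlier results of these data known. List members beyond this rule, Psmb9, Atf3, Atf4, Slc7a11, Fgf21, Txnip and Sesn1 were named after their values were seen. Some genes that the rule names are not reported here.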

Additional observations from a re-analysis of the deposited data

Results flagged for a closer look

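In 10 of 133 sets of 4 stimulated libraries that were looked at, 1 library lay apart from the other 3 by more than Dixon's critical share of the whole range. Chance flags about 1 in 20 such sets. In stimulated 1, Klf2 stood at 58.5 CPM (2.30 to 3.04 in the others), S1pr1 at 20.1 CPM (0.891 to 2.21), Tcf7 at 53.2 CPM (15.2 to 19.7), Ifi214 at 4.64 CPM (1.36 to 1.65) and Clk1 at 21.7 CPM (17.9 to 18.5). Of these, Klf2, S1pr1 and Tcf7 are high in the naive libraries. In stimulated 4, Myb stood at 0.562 CPM (1.95 to 2.01) and Gpt2 at 1.82 CPM (5.75 to 6.19). In stimulated 2, Fosl1 stood at 13.9 CPM (17.2 to 17.8) and Cd3g at 129 CPM (204 to 217). In stimulated 3, Hsp90aa1 stood at 679 CPM (814 to 836). Torin libraries, 3 in number, were not looked at in this way.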

How the results depend on the processing

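The count of 975 genes past the test moved to 544 with the replicate block (261 higher, 283 lower), to 2868 by DESeq2, to 114 with the unexplained first letter of the library descriptions as a term (chosen after seeing the data), to 50 without the libraries of number 4, 1 without those of number 3 and 13 without those of number 1, and to between 57 and 1030 when 1 library was left out. The block also leaves out stimulated 2, without which the count was 304 with no block. These settings leave fewer libraries, apart from DESeq2 and the first letter, and the cause of those moves was not tested. With all 11 libraries, library totals alone, RLE factors, no filter and a mean of at least 5 CPM it was 1027, 1077, 933, 712 and 1413. No named gene past the test changed direction, while some that did not pass and lay near 0 changed sign, such as Odc1 (-0.11 to 0.01 with library totals). With library totals alone 694 genes were higher and 383 lower. The medians of 7 lists near 0 then turned positive, as for the mitochondrial ribosome (-0.11 to 0.02). Of 127 named genes, the block ended 36 calls (44 ended without stimulated 2 alone), the all-library fit 26, no filter 13, library totals 12 and RLE factors 5, and DESeq2 ended none. The 3 genes with changed transcript usage became 0 with the block (356 at an unadjusted p under 0.05), 18 by diffSpliceDGE, 8 and 5 with a prior of 0.1 and 2 CPM, 1 with a mean of at least 5 CPM and 4 to 14 when 1 library was left out. In pairs by number, the Tra2b poison exon share differed by 8.25 points and the decay and retained intron share by 0.739, against 8.48 and 0.772. The number of Torin libraries, 3, limits precision, as do levels under 1 CPM in both groups, which 38.2% of the genes tested had.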

Other observations

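Heat-shock and chaperonin genes had 1 of 21 members past the test, Hsp90aa1, which fell but did not pass with the block, and 19 had a negative log2 change (median -0.32). Genes of purine and pyrimidine synthesis, of which none of 25 passed, had 21 negative log2 changes and a median of -0.35. Odc1, the rate-limiting enzyme of polyamine synthesis, had a log2 change of -0.11.

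Mgarp, a mitochondrial protein, stood at 2.54, 1.39, 1.67 and 2.34 CPM in stimulated 1 to 4 and was listed at 0 in all 3 Torin libraries (edgeR adjusted p = 0.00332). Atp6v0d2, a subunit of the vacuolar proton pump, rose from 1.18, 0.410, 0.231 and 0.914 CPM to 12.0, 5.71 and 5.37 CPM (log2 change 3.49, edgeR adjusted p = 0.0211), and the call ended without Torin 1, Torin 3, stimulated 2 or stimulated 4 (highest adjusted p = 0.0831). Gm20302, annotated as a processed pseudogene and so uncertain in its reads, was listed at 0 in all 4 stimulated libraries and stood at 10.7, 10.7 and 7.69 CPM in Torin 1, 3 and 4 (edgeR adjusted p = 0.00224), while naive 1 and naive 3 had 3.33 and 6.71 CPM and the other naive libraries 0. These genes were chosen after their values were seen.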
